A study of Mus musculus with 45 samples.

Results

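The genes described here are the receptors for fibroblast growth factors (FGFs) and the best-known feedback targets of their signal. They are 10 genes chosen by name: the receptors Fgfr1, Fgfr2, Fgfr3 and Fgfr4, the inhibitors Spry1, Spry2, Spry4 and Dusp6, and the transcription factors Etv4 and Etv5. They are 10 of the 35272 genes with reads in these libraries, and all 10 passed the low-count filter in every comparison. Messenger RNA came from forelimb buds of CD1 mouse embryos taken at gestation day 13 and cultured for 3, 24 or 48 h. The medium held DMSO as the solvent control, 1 µM bisphenol AF (BPAF) or 5 µM BPAF, a bisphenol that carries fluorine. Each dose and time had 5 libraries, 45 in 9 groups, with no genetic change in any of them. The labels describe pooled limbs, with both sexes in culture together, and do not say whether the replicates were separate cultures or days. P-values measure the spread between these libraries only. Part of that spread may be technical, but the libraries of a group differ in Y-linked transcripts and so were not repeats of 1 pool of both sexes.

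FGFs are secreted proteins that bind receptor tyrosine kinases on neighbouring cells. In the limb bud, FGFs of the apical ridge and of the mesenchyme keep each other active while the bud grows out, and later FGFR3 restrains cartilage growth while FGFR1 and FGFR2 act in mesenchyme and bone precursors. The active receptor works through the RAS and ERK cascade, which turns on Etv4 and Etv5, and also turns on Sprouty proteins and the phosphatase DUSP6, which damp the cascade. Transcripts of this second group are widely used as readouts of FGF signal.

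Library totals lay between 14901842 and 25154115 reads (median 17820524), and the members held between 118 and 12497 reads in a library. Levels are given as CPM, read counts scaled to library size and by TMM over all 45 libraries, and a level set against that of another gene is given per kilobase of the deposited gene length. The forelimb factor Tbx5 lay between 200.2 and 309 CPM, the limb mesenchyme factor Prrx1 between 349 and 588 CPM and the cartilage factor Sox9 between 355 and 545 CPM over the 45 libraries, so the labelled tissue's defining genes were present in each one. The treatment tag of 1 µM 3 h replicate 5 gives a different bisphenol from its title, by which it was kept at 1 µM BPAF, and titles and library codes of 1 µM 48 h replicates 1 and 2 are crossed. The sum of 4 Y-linked transcripts went against a pool of both sexes in 3 of the 45 libraries, where it was under 1 CPM. These were replicate 1 of 1 µM at 3 h (0.46 CPM), replicate 2 of 1 µM at 48 h (0.16 CPM) and replicate 3 of control at 3 h (0.10 CPM), and the other libraries lay between 53.6 and 316.6 CPM. Of the members' calls, leaving out one of these 3 ended that of Fgfr2 for 5 µM against 1 µM at 48 h and that of Fgfr2 for the difference of the 5 µM effect between 48 and 3 h, and no other. In whole buds, fewer cells of a type and less RNA per cell cannot be told apart.

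Promoter windows of 5 members are shown, chosen for their results: Fgfr3, which rose at 5 µM, and Fgfr4, Spry1, Spry2 and Etv5, which fell at 48 h. Each runs from 250 bases before to 50 bases after the RefSeq start (GRCm38.p6), 5′ to 3′ on the strand of the gene, and 7 of the 10 members had such a window. They lie at chr5:33721474-33721773 (plus strand) for Fgfr3, chr13:55152568-55152867 (plus strand) for Fgfr4, chr3:37639697-37639996 (plus strand) for Spry1, chr14:105896770-105897069 (minus strand) for Spry2 and chr16:22439521-22439820 (minus strand) for Etv5. Capitals mark the ETS core CCGGAA, the letters that factors of the Etv family bind, searched on both strands.
Fgfr3: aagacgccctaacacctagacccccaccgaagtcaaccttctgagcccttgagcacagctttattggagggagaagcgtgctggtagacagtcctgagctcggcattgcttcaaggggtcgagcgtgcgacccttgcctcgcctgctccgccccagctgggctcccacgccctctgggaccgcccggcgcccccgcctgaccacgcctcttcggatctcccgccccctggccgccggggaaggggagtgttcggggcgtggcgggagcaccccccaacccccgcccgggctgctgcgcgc
Fgfr4: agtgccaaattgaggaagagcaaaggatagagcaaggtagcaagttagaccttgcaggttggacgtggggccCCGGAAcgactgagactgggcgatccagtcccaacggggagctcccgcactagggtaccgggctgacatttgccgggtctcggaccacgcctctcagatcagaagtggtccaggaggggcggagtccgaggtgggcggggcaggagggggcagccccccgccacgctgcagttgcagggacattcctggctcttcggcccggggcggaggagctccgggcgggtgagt
Spry1: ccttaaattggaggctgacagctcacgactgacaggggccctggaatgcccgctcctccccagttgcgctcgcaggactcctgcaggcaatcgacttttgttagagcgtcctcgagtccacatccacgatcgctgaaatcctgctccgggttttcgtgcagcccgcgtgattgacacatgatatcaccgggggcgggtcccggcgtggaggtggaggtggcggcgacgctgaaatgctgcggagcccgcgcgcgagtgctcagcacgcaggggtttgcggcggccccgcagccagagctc
Spry2: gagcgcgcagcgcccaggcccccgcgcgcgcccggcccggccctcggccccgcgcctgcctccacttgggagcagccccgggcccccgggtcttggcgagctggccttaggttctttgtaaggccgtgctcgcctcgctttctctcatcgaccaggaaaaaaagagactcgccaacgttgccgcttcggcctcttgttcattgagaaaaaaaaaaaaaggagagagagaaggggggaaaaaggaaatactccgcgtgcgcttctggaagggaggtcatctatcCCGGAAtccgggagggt
Etv5: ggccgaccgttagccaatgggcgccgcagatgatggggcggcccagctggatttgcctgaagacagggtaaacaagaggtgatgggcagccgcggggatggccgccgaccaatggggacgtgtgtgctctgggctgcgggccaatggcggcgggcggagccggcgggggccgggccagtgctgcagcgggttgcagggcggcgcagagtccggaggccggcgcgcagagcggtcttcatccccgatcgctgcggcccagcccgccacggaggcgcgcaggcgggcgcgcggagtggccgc
One match was found in Fgfr4, beginning at base 73, and 1 in Spry2, beginning at base 284. The motif was present in 14.9% of the 32851 mouse windows of that length. The AP-1 motif TGANTCA, which does not overlap it and is present in 7.808% of all windows, was in none of the printed windows. G and C made up 69.7% of the Fgfr3 window, 65.3% of the Fgfr4 window, 64.3% of the Spry1 window, 62.7% of the Spry2 window and 74.0% of the Etv5 window. A match is a description of letters and shows no binding.

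In control buds 3 of the 4 receptor transcripts and 3 of the 6 feedback transcripts were called higher at 48 h than at 3 h in culture. Of all tested genes, 50.9% were called in this comparison in either direction. From the earliest to the latest control libraries, Fgfr1 averaged 354 ± 6.52 CPM at 3 h, 495 ± 12.7 CPM at 24 h and 533 ± 23.4 CPM at 48 h, and Fgfr3 averaged 113 ± 7.46, 193 ± 11.9 and 249 ± 28.1 CPM (SD, n = 5 each). Etv5 averaged 52.5 ± 2.29, 107.5 ± 8.79 and 118 ± 6.46 CPM at 3, 24 and 48 h. Its 5 libraries of 24 h all lay above the 5 of 3 h. Fgfr2, which serves ectoderm and mesenchyme through separate splice forms, stayed between 169 and 206 CPM in every control library.

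Of the 10 members, 8 were called at 24 h against 3 h in controls, where 37.8% of all tested genes were called by edgeR's quasi-likelihood test at a Benjamini-Hochberg adjusted p under 0.05. The log2 fold changes of the 7 that rose were 0.47 ± 0.04 for Fgfr1, 0.77 ± 0.06 for Fgfr3, 0.48 ± 0.08 for Fgfr4, 0.23 ± 0.07 for Spry1, 0.23 ± 0.07 for Spry2, 0.61 ± 0.11 for Spry4 and 1.03 ± 0.06 for Etv5 (SE). Etv4 fell by 0.47 ± 0.11 on the log2 scale, the opposite direction to its close relative Etv5. The Spry1 call was lost without control 3 h replicate 2 or 5 or control 24 h replicate 3, and the Spry2 call without control 3 h replicate 2 or 5, with adjusted p up to 0.0564 and 0.0528 in edgeR. At 48 h against 24 h only Fgfr3 was called, at 0.36 ± 0.08, beside 16.3% of all genes. At 48 h against 3 h the 6 called members all rose, beside 50.9% of all genes: Fgfr1, Fgfr3, Fgfr4, Spry1, Spry4 and Etv5, by 0.33 ± 0.08 (Spry1) to 1.17 ± 0.06 (Etv5). Lists of other cell types moved over that period too: in controls the summed CPM of 15 chondrocyte genes had a median of 5633 at 3 h, 13971 at 24 h and 23340 at 48 h, and that of 18 skeletal muscle genes 1591, 4031 and 5552. At 48 h against 3 h, 9 of 10 macrophage genes and 11 of 11 tested genes of hypertrophic cartilage and osteoblasts were also called higher. Other lists fell: 10 of 10 limb mesenchyme genes and 11 of 12 epidermis and apical ridge genes were called lower. So were 10 of 10 endothelium genes and 7 of 7 tested erythroid genes. The part of these lists in the members' changes was not tested.

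**Figure D1:**
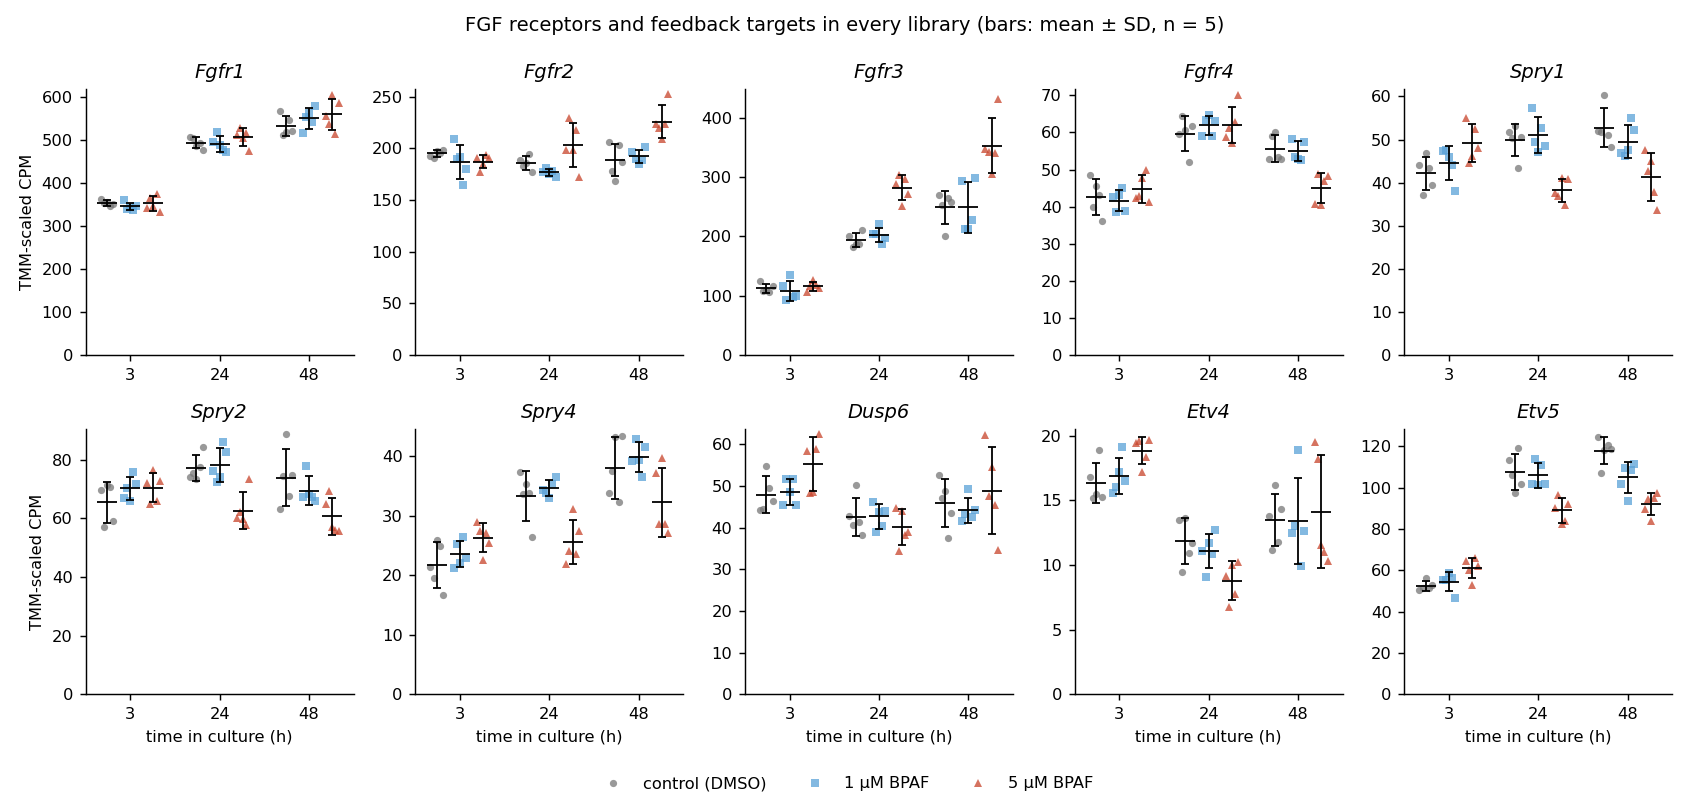
Level of each of the 10 genes in all 45 libraries, in TMM-scaled CPM (y axis, from 0) against time in culture (x axis, in h), with points for libraries and bars for the mean and SD of 5. The 5 µM points of Fgfr3 lie above the control points at 24 and 48 h and those of Spry1 and Etv5 below, whereas the 1 µM points overlap the control points.

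Set per kilobase, the order of the members in control buds at 48 h was led by Fgfr1 at 54.0 ± 2.37 CPM per kb. Spry2 (35.4 ± 4.65) and Fgfr3 (34.8 ± 3.92) followed and did not differ beyond their spread, then Etv5 (28.7 ± 1.57). Fgfr2 (18.3 ± 1.53), Spry1 (18.1 ± 1.56), Fgfr4 (15.7 ± 1.03) and Dusp6 (14.6 ± 1.82) followed, and neither the first pair of these nor the second differed beyond its spread. Spry4 (8.29 ± 1.12) and Etv4 (4.33 ± 0.65) were lowest. In 5 µM buds at 48 h Fgfr1 (56.7 ± 3.69) again led, now followed by Fgfr3 (49.4 ± 6.54), and Spry2 (29.1 ± 2.99) came next. The Fgfr2 value depends on its deposited gene model, which spans 2960900 bases and overlaps 59 other listed genes, and how reads in such overlaps were counted is not given in the sources used here.

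The change by BPAF was carried by 5 µM. At 5 µM against control, Fgfr3 rose at 24 and 48 h, Spry1 fell at both times, and at 48 h Fgfr2 rose while Fgfr4, Spry2 and Etv5 fell. None of the 10 passed the test at 3 h. Fgfr1, the most abundant receptor, together with Dusp6, Spry4 and Etv4, passed it at no time in the edgeR fit that ignores replicate numbers. With the replicate number as a block, Etv4, Spry2 and Etv5 were also called lower at 24 h. The block fit called 655 of all genes at that time, in place of 258. Whether the numbers pair these libraries is undecided.

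FGFR3 is the receptor of proliferating chondrocytes and slows their division. At 24 h Fgfr3 had 288, 304, 252, 296 and 272 CPM in 5 µM buds, against 201, 181, 187, 187 and 210.4 CPM in control buds. Every 5 µM library was above every control library. Its log2 fold change was 0.55 ± 0.07 (adjusted p = 8.232e-04 in edgeR), and Fgfr3 was 1 of 2 members called at 24 h, where 1.57% of all genes were called. At 48 h it had 347, 343, 305, 340.1 and 432 CPM in 5 µM buds, against 269.8, 253, 200.2, 264 and 259 CPM in control buds. The groups did not overlap, although 5 µM replicate 5 stood well above the other 5 µM libraries and control replicate 3 below the other controls. The log2 fold change at 48 h was 0.48 ± 0.09 (adjusted p = 0.00270 in edgeR), and Fgfr3 was 1 of 6 members called, beside 7.16% of all genes. It stayed called at both times when any single library was left out, with log2 fold changes between 0.41 and 0.60. The 15 chondrocyte genes, among which none was called, summed to 13307 to 14630 CPM in 5 µM buds and 12304 to 14561 CPM in control buds at 24 h, and to 22820 to 27461 CPM in 5 µM buds and 19363 to 23853 CPM in control buds at 48 h. The 12 genes of hypertrophic cartilage and osteoblasts summed to less at 5 µM, with 346 to 387 CPM in 5 µM buds and 462 to 526 CPM in control buds at 24 h, and 708 to 1209 CPM in 5 µM buds and 1237 to 1626 CPM in control buds at 48 h. That sum is dominated by Ibsp and Col10a1, a bone matrix gene and the collagen of hypertrophic cartilage, which were both called lower at both times: at 48 h Ibsp averaged 292 ± 147 CPM in 5 µM buds and 725 ± 73.6 CPM in control buds, and Col10a1 99.2 ± 63.0 CPM and 219.9 ± 78.3 CPM (SD, n = 5 each). The list did not move as one, since at 48 h 7 of its 11 tested genes were fitted above 0, with a median log2 fold change of 0.07. Mmp13, a collagenase of that cartilage, was called higher at both times, but at low levels. It averaged 1.17 ± 0.77 CPM in 5 µM buds and 0.26 ± 0.15 CPM in control buds at 24 h. At 48 h it averaged 3.47 ± 2.03 and 1.27 ± 0.27 CPM. The part of these lists in the Fgfr3 value was not tested.

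The splice forms of Fgfr2 were not separated, because the counts are per gene. At 48 h it had 223, 220.1, 209, 224 and 253 CPM in 5 µM buds, against 206, 179, 169, 203 and 187 CPM in control buds. The lowest 5 µM library was just above the highest control library. The log2 fold change was 0.23 ± 0.07 (adjusted p = 0.0468 in edgeR). This call was lost without any of 5 µM replicates 1, 2, 4 and 5 or control replicates 2, 3 and 5, with adjusted p up to 0.120 while the fold change stayed between 0.20 and 0.27. At 24 h the log2 fold change was 0.14 ± 0.07 and not called. At 48 h the 10 limb mesenchyme genes summed to 1132 to 1251 CPM in 5 µM buds and 1014 to 1139 CPM in control buds, with 1 called higher. The epidermis and apical ridge list summed to 213 to 419 CPM in 5 µM buds and 252 to 400 CPM in control buds. Of its 10 tested genes 2 were called lower. The part of these lists in the Fgfr2 value was not tested.

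Fgfr4 encodes the receptor found in muscle progenitors of the embryo. At 48 h it had 40.8, 48.9, 40.5, 46.9 and 48.2 CPM in 5 µM buds, against 52.9, 59.1, 60.2, 53.5 and 52.7 CPM in control buds. All 5 µM libraries were below all control libraries. This was a log2 fold change of -0.33 ± 0.07 (adjusted p = 0.0104 in edgeR), and the call held without any single library. At 24 h Fgfr4 had 57.1 to 70.0 CPM in 5 µM buds and 52.1 to 64.5 CPM in control buds, a log2 fold change of 0.06 ± 0.07 that was not called. Muscle transcripts were lower at 5 µM already at that time: the summed CPM of 18 skeletal muscle genes lay between 2523 and 3167 in 5 µM buds and between 3713 and 4367 in control buds at 24 h, and between 2565 and 2990 against 4356 and 6756 at 48 h. Of this list 7 of 16 tested genes fell at 24 h and 15 of 17 at 48 h (edgeR), with no list member at 0 in a group. Macrophage genes fell as well, 8 of 10 at 48 h. The part of either list in the Fgfr4 value was not tested.

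**Figure D2:**
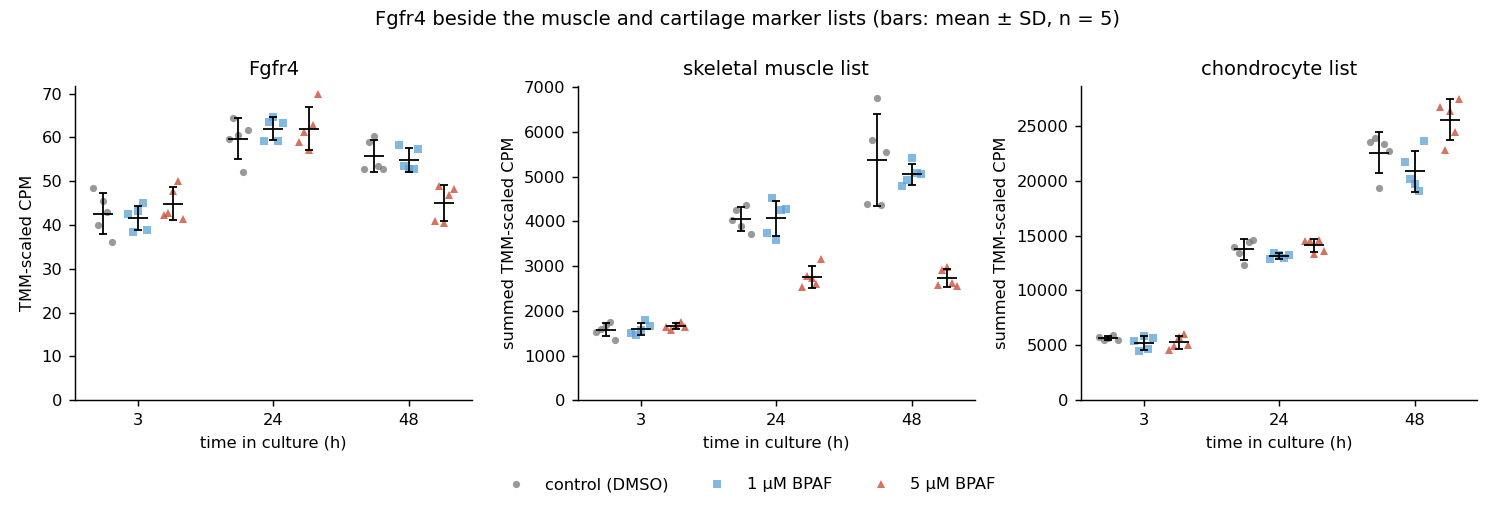
Fgfr4 (left), the summed skeletal muscle list (middle) and the summed chondrocyte list (right) in TMM-scaled CPM (y axes, from 0) against time in culture (x axis, in h), with points for libraries and bars for the mean and SD of 5. At 24 h the muscle sum is already below control in all 5 µM libraries while Fgfr4 overlaps control, and at 48 h both are below.

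Fgfr1, the main FGF receptor of limb mesenchyme, had 515 to 606 CPM in 5 µM buds and 511 to 568 CPM in control buds at 48 h. The ranges overlapped and the log2 fold change was 0.05 ± 0.06 with a 95% interval from -0.08 to 0.17. At 24 h the interval ran from -0.06 to 0.15 and at 3 h from -0.09 to 0.09. The values fitted for Fgfr3 at 24 and 48 h lie outside the Fgfr1 intervals of those times.

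The mean make-up of the receptor transcripts at 5 µM differed from that of control at 24 and 48 h. Per kilobase, Fgfr3 made up 35.0% ± 2.41 of the 4 receptors' summed level in 5 µM buds and 28.3% ± 2.10 in control buds at 48 h (SD, n = 5 each), and the ranges of 31.4 to 38.2% and 24.5 to 29.6% did not overlap. Fgfr4 made up 9.05% ± 0.81 in 5 µM buds and 12.9% ± 1.44 in control buds, and every 5 µM library was below every control library. Fgfr1 made up 40.4% ± 2.93 in 5 µM buds and 44.0% ± 1.33 in control buds, with overlapping ranges, and Fgfr2 15.5% ± 0.42 and 14.9% ± 0.55. At 24 h Fgfr3 stood at 30.8% ± 1.05 in 5 µM buds and 24.1% ± 1.35 in control buds, without overlap. At 3 h the ranges overlapped, with Fgfr3 at 19.6% ± 0.98 in 5 µM buds and 19.1% ± 0.84 in control buds. Fgfr4 then stood at 15.3% ± 0.72 and 14.6% ± 1.29, also with overlap. These shares are fixed by one another, so a gain of one is a loss of the others, and they were not tested.

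**Figure D3:**
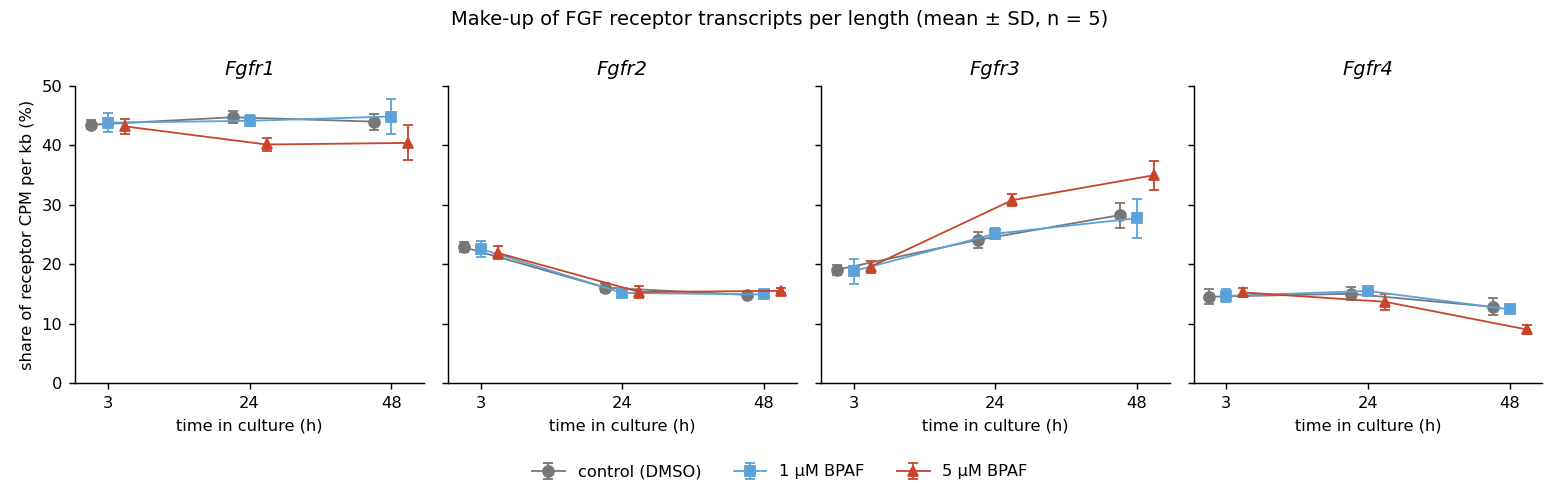
Share of each receptor in the summed CPM per kb of the 4 receptors (y axis, in percent) against time in culture (x axis, in h), as mean and SD of 5 libraries, with points of a time set slightly apart. The 5 µM line for Fgfr3 runs above the control line at 24 and 48 h, ending at 35.0% against 28.3%, and that for Fgfr4 ends at 9.05% against 12.9%.

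Sprouty proteins are the inhibitors that FGF signal induces against itself. At 24 h Spry1 had 37.6, 36.8, 41.0, 34.9 and 40.8 CPM in 5 µM buds, against 51.9, 50.4, 53.1, 43.5 and 50.5 CPM in control buds. The groups did not overlap, and control replicate 4 lay nearest to the 5 µM libraries. The log2 fold change was -0.38 ± 0.07 (adjusted p = 0.0187 in edgeR), the other call of that time. The call was lost without 5 µM replicate 1 or 2 or control replicate 1, 2 or 3, with adjusted p up to 0.0598. At 48 h Spry1 had 47.7, 42.6, 45.1, 37.8 and 33.7 CPM in 5 µM buds, against 52.0, 51.9, 60.4, 51.1 and 48.3 CPM in control buds. The highest 5 µM library was just below the lowest control library. The log2 fold change was -0.37 ± 0.09 (adjusted p = 0.0163 in edgeR), and the call was lost without 5 µM replicate 5 or control replicate 3, with adjusted p up to 0.0597.

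Spry2 and Spry4 had lower mean levels at 5 µM at both later times, with 1 call between them in the fit without a replicate block. At 48 h Spry2 had 65.0, 69.5, 57.3, 56.0 and 55.7 CPM in 5 µM buds, against 63.3, 74.5, 88.9, 67.8 and 74.8 CPM in control buds. The groups overlapped through control replicate 1. Its log2 fold change was -0.31 ± 0.09 (adjusted p = 0.0428 in edgeR), and the call was lost without 5 µM replicate 1, 3, 4 or 5 or control replicate 2, 3, 4 or 5, with adjusted p up to 0.134. At 24 h the log2 fold change of Spry2 was -0.29 ± 0.07 (adjusted p = 0.0631 in edgeR). With the replicate block Spry2 was called at 24 h (adjusted p = 0.00548 in edgeR). The groups did not overlap then, with 57.8 to 73.4 CPM in 5 µM buds and 73.6 to 84.5 CPM in control buds. Without 5 µM replicate 5, the highest 5 µM library, Spry2 was called at 24 h with adjusted p = 0.00470 in edgeR. Replicates 5 of both groups stood apart at 24 h in 7 erythroid genes, which summed to 1076 CPM in the 5 µM library and 1018 CPM in the control library, where the group medians were 517 and 637 CPM. Leaving out both was chosen after seeing the data. In that fit 514 of 16464 tested genes were called at 24 h (edgeR), in place of 258 of 16433. Among them were 5 members: Fgfr3 at 0.60, Spry1 at -0.40, Spry2 at -0.32, Spry4 at -0.47 and Etv5 at -0.30. For Spry4 the log2 fold change was -0.37 ± 0.11 at 24 h (adjusted p = 0.130) and -0.26 ± 0.11 at 48 h (adjusted p = 0.212, both edgeR). Its levels overlapped at both times, with 21.9 to 31.1 CPM in 5 µM buds and 26.4 to 37.3 CPM in control buds at 24 h. Without control replicate 5, the lowest control library, Spry4 was called at 24 h with adjusted p = 0.0369 in edgeR.

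DUSP6 removes phosphate from ERK and is the feedback gene closest to the kinase itself. Its levels at 48 h were 62.2, 47.6, 54.6, 45.4 and 34.5 CPM in 5 µM buds, against 52.6, 47.0, 48.7, 37.6 and 43.4 CPM in control buds. The 5 µM libraries enclosed all control libraries, and the log2 fold change was 0.07 ± 0.12 with a 95% interval from -0.20 to 0.33. At 24 h it was -0.08 ± 0.09 with an interval from -0.27 to 0.11. A fall of the size fitted for Spry1 lies outside both intervals.

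ETV4 and ETV5 are ETS factors that carry FGF signal into transcription in limb mesenchyme. At 48 h Etv5 had 89.9, 94.3, 84.0, 94.9 and 97.4 CPM in 5 µM buds, against 124.7, 107.3, 118.1, 120.7 and 118.9 CPM in control buds. All 5 µM libraries were below all control libraries. The log2 fold change of -0.38 ± 0.06 was the one of smallest adjusted p among the members at 48 h (4.986e-04 in edgeR), and it was called without any single library too. At 24 h Etv5 had 82.2 to 96.6 CPM in 5 µM buds and 97.4 to 119.1 CPM in control buds, again without overlap, and the log2 fold change of -0.26 ± 0.07 was not called (adjusted p = 0.0769 in edgeR). Etv4 was the scarcest member, and its 5 µM libraries at 48 h split into 19.5 and 18.2 CPM in replicates 1 and 2 and 10.3 to 11.6 CPM in replicates 3, 4 and 5, against 11.2 to 16.2 CPM in control buds. Its log2 fold change was 0.05 ± 0.17 at 48 h and -0.42 ± 0.14 at 24 h (adjusted p = 0.926 and 0.202 in edgeR). With the replicate block Etv4 and Etv5 were both called at 24 h (adjusted p = 0.0383 and 0.0193 in edgeR). The fall of Spry1, Spry2 and Etv5 at 48 h stood beside the lower muscle and macrophage lists given above and an endothelium list that summed to 232 to 298 CPM in 5 µM buds and 311 to 351 CPM in control buds, with 3 of its 10 genes called lower. The part of these cell types in the feedback genes was not tested. No test set the change of Etv4 against that of Etv5.

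**Figure D4:**
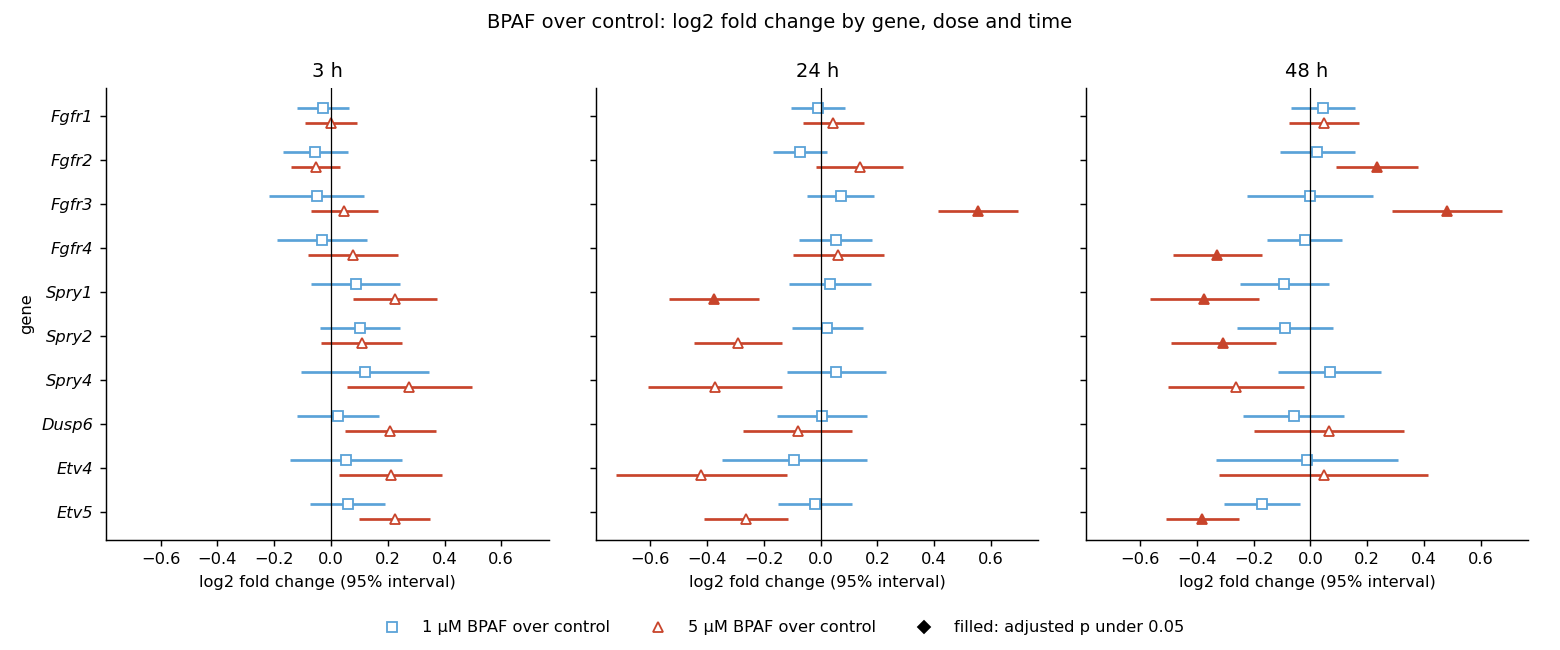
Log2 fold change of BPAF over control (x axis) for each gene (y axis) at 3, 24 and 48 h, with 95% intervals, squares for 1 µM and triangles for 5 µM, filled where the adjusted p was under 0.05. At 5 µM the 6 feedback genes lie right of 0 at 3 h and left of 0 at 24 h, and Fgfr3 is far right at 24 and 48 h. At 1 µM the 6 feedback genes also lie right of 0 at 3 h, from 0.02 (Dusp6) to 0.12 (Spry4), and Etv5 lies at -0.17 at 48 h. No 1 µM point is filled.

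At 3 h the feedback genes stood slightly above control at 5 µM. No member was called at 5 µM in edgeR or in DESeq2, beside 0.180% of all genes in edgeR. Before adjustment, 5 of the 10 had a p under 0.05 and all 5 were higher: Spry1 (0.23 ± 0.07), Spry4 (0.28 ± 0.11), Dusp6 (0.21 ± 0.08), Etv4 (0.21 ± 0.09) and Etv5 (0.22 ± 0.06). Among all genes, 8.55% had such a p in either direction and 4.56% in the upward direction. Etv5 had 64.5, 60.2, 53.2, 66.0 and 62.0 CPM in 5 µM buds, against 50.3, 51.6, 56.2, 51.4 and 53.2 CPM in control buds. The groups overlapped through 5 µM replicate 3 and control replicate 3, and the adjusted p was 0.169 in edgeR. The receptors' log2 fold changes at 3 h lay between -0.05 (Fgfr2) and 0.08 (Fgfr4). At 1 µM every feedback gene was also fitted above 0 at 3 h, from 0.02 (Dusp6) to 0.12 (Spry4), against the same control libraries. Spry2 was fitted at 0.10 at 1 µM and 0.11 at 5 µM. At 5 µM the median over the 10 members was 0.16 at 3 h, beside 0.00 over all genes. The 12 genes of the epidermis and apical ridge list were all fitted above 0 at 3 h with a median of 0.25 and none called. They summed to 662 to 853 CPM in 5 µM buds and 486 to 769 CPM in control buds. The part of this list in the members' values was not tested.

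Whether the 5 µM effect itself differed between times was tested over 20 libraries each. At 24 h against 3 h, 3 members differed, beside 0.336% of all genes: Fgfr3 by 0.52 ± 0.09 (adjusted p = 0.00512), Spry1 by -0.59 ± 0.10 (adjusted p = 0.00766) and Etv5 by -0.48 ± 0.09 (adjusted p = 0.0165, all edgeR). At 48 h against 3 h, 5 differed, beside 2.80% of all genes. Etv5 differed by -0.59 ± 0.08 (adjusted p = 6.644e-05), Spry1 by -0.59 ± 0.12 (adjusted p = 0.00422), Fgfr3 by 0.45 ± 0.11 (adjusted p = 0.0244), Fgfr2 by 0.30 ± 0.08 (adjusted p = 0.0273) and Fgfr4 by -0.39 ± 0.11 (adjusted p = 0.0480, all edgeR). Of these, Spry1 and Etv5 kept their call without any single library. The Fgfr3 call was lost without 5 of the 20 libraries (3 h replicates 1 and 5 of 5 µM and of control, and 5 µM 48 h replicate 5), the Fgfr2 call without 8 and the Fgfr4 call without 13, with adjusted p up to 0.0585, 0.0685 and 0.118. Between 48 and 24 h no member's effect differed in edgeR or DESeq2, beside 0.0693% of all genes, and Fgfr4 alone had an unadjusted p under 0.05 with a difference of -0.38 ± 0.10 (adjusted p = 0.282 in edgeR). These tests share the control and 5 µM libraries of each time.

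At 1 µM no member was called at any time by edgeR or DESeq2. Over all genes edgeR called 0% at 3 h, 0.00608% at 24 h and 0% at 48 h. At 24 h the block by replicate number called 2 genes in place of 1. Before adjustment 0 members had a p under 0.05 at 3 and 24 h, and 1 did at 48 h. This was Etv5, with 101.9, 109.3, 93.4, 108.6 and 111.5 CPM in 1 µM buds, against the control values given above. Its log2 fold change of -0.17 ± 0.06 had a 95% interval from -0.30 to -0.04 and an adjusted p of 0.998 in edgeR. The fitted Etv5 values at 48 h were thus -0.17 at 1 µM and -0.38 at 5 µM, and both comparisons share the control libraries. For Fgfr3 the 95% interval at 1 µM ran from -0.05 to 0.19 at 24 h and from -0.23 to 0.22 at 48 h, which leaves out the values fitted at 5 µM.

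The 5 µM libraries were also set against the 1 µM libraries, a comparison that uses no control. At 24 h, 4 members were called, beside 1.19% of all genes: Fgfr3 at 0.48 ± 0.06 (adjusted p = 0.00139), Spry1 at -0.42 ± 0.07 (adjusted p = 0.00783), Spry4 at -0.43 ± 0.09 (adjusted p = 0.0263) and Spry2 at -0.32 ± 0.07 (adjusted p = 0.0421, all edgeR). Of the 10 fits that left out a library, the Spry2 call was kept in 1, that without 5 µM replicate 5, and the Spry4 call in 3, with adjusted p up to 0.214 and 0.102 in edgeR. At this time same-numbered libraries deviated together, and in the fit with a replicate block 5 members and 319 of all genes, in place of 196, were called, since Etv5 joined at -0.25 (adjusted p = 0.0386). At 48 h, 3 were called, beside 5.96% of all genes: Fgfr3 at 0.49 ± 0.10, Fgfr2 at 0.21 ± 0.05 and Fgfr4 at -0.30 ± 0.07 (adjusted p = 0.00858, 0.0239 and 0.0122 in edgeR). The Fgfr2 call was lost without 5 µM replicate 5 or 1 µM replicate 2, 3 or 4, with adjusted p up to 0.0651. Cell type lists moved in this comparison too. All 15 chondrocyte genes were fitted above 0, with a median of 0.16 and 4 called higher, and they summed to 22820 to 27461 CPM in 5 µM buds and 19017 to 23650 CPM in 1 µM buds. All 17 tested skeletal muscle genes were called lower, and the list summed to 2565 to 2990 CPM in 5 µM buds and 4788 to 5416 CPM in 1 µM buds. Their part in the values of Fgfr3 and Fgfr4 was not tested. With a replicate block numbered by the library codes the count at 48 h was 6, among 1618 of all genes in place of 974, with Etv5 at -0.21, Spry4 at -0.34 and Spry2 at -0.22 added (adjusted p = 0.00783, 0.0148 and 0.0259 in edgeR). At 3 h none was called by edgeR or DESeq2, beside 0.0360% of all genes, and 2 members, Dusp6 and Etv5, had an unadjusted p under 0.05 and were higher, beside 2.92% of all genes that were higher at such a p and 5.93% in either direction. The replicate block gave 50 called genes at 3 h in place of 6, with no member among them.

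Few other genes of the pathway passed the test at 5 µM, and the ligands Fgf4 and Fgf6 among them had larger fold changes than any member. Of 11 FGF ligand genes tested at 48 h, 3 fell at 5 µM against control and none rose, beside 7.16% of all genes called in either direction. Fgf6, a ligand made by developing muscle, had 1.67, 3.34, 1.98, 1.94 and 2.83 CPM in 5 µM buds, against 10.4, 6.80, 10.1, 5.11 and 8.51 CPM in control buds. The groups did not overlap, and its log2 fold change was -1.82 ± 0.23 (adjusted p = 7.204e-05 in edgeR). Fgf4, a ridge ligand in the early bud, averaged 0.57 ± 0.19 CPM in 5 µM buds and 2.21 ± 0.66 CPM in control buds (SD, n = 5 each), with a log2 fold change of -1.96 ± 0.33 (adjusted p = 7.931e-04 in edgeR) at levels near the filter. In control buds Fgf4 averaged 0.29 CPM at 3 h and 2.07 CPM at 24 h. The epidermis and apical ridge list had mean sums of 617 and 259 CPM at those times. Which cells made Fgf4 here was not tested. Fgf9, a mesenchymal and epithelial ligand, averaged 15.3 ± 1.93 CPM in 5 µM buds and 19.5 ± 2.09 CPM in control buds, with a log2 fold change of -0.38 ± 0.11 (adjusted p = 0.0419 in edgeR). At 24 h Fgf6 was the one ligand called, at -1.08 ± 0.19 (adjusted p = 0.00998 in edgeR). Fgf10, the mesenchymal ligand that maintains the ridge, was not called at 48 h (0.19 ± 0.11).

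Among receptor partners 1 of 11 tested genes was called at 48 h and among relay genes 2 of 20, shares near the 7.16% called over all genes. The receptor partner was Sulf2, a sulfatase that edits the heparan sulfate needed for FGF binding, with 721 to 893 CPM in 5 µM buds and 642 to 699.6 CPM in control buds and a log2 fold change of 0.23 ± 0.06 (adjusted p = 0.0264 in edgeR). Both relay genes fell. Ksr1, the scaffold that holds RAF, MEK and ERK together, averaged 29.2 ± 2.84 CPM in 5 µM buds and 39.5 ± 4.17 CPM in control buds, a log2 fold change of -0.46 ± 0.09 (adjusted p = 0.00303 in edgeR). Map2k1, the kinase MEK1, changed by -0.26 ± 0.07 (adjusted p = 0.0323 in edgeR). At 24 h no receptor partner or relay gene was called, and at 3 h no gene of the 4 lists was. At 1 µM none was called at any time (edgeR). Of 17 other feedback and target genes tested, none was called at 3, 24 or 48 h in edgeR. Their medians were 0.09, -0.06 and 0.00 at 3, 24 and 48 h on the log2 scale, with 14, 3 and 9 of the 17 fitted above 0, while the median over all genes lay within 0.0019 of 0 at each time. Etv1, the third ETS factor of that family, was at -0.34 ± 0.09 at 24 h (adjusted p = 0.0845) and -0.27 ± 0.10 at 48 h (adjusted p = 0.157, both edgeR).

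The genes whose profile over the 9 group means was closest to that of each changed member were looked up among 12771 genes, by the root mean square difference of centred log2 levels. For Fgfr3, whose group means spanned 1.71 log2 units, they were Fstl4, Dkk3 and Extl1 at 0.11 to 0.13. For Etv5, with a span of 1.16, they were Nim1k, Perm1 and Myog at 0.07 to 0.09, and Myog is the muscle differentiation factor myogenin. For Spry4 the third was Etv1 at 0.09, after Paqr4 and Creld1. Spry1 was closest to Ccne1 (0.04), Spry2 to Chrac1 (0.03), Fgfr2 to Kcna1 (0.03) and Fgfr4 to Fzd8 (0.06). Profiles with a small span, such as that of Fgfr2 (0.35), are close to many genes, and the measure says nothing of a shared function.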

How the data were processed

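Poly-A RNA was sequenced from 45 forelimb bud cultures in 9 groups of 5 and assigned to groups by title. The data came as 9 tables of 10 libraries each. The authors deposited raw read counts, and those were used here. They also give, by the authors' columns, a normalized signal, FPKM values, a log2 fold change and a p-value, none of which was used. HTSeq 0.6.1, STAR 2.5, CASAVA 1.8, DESeq2 and the build mm10 are named, per the submitters' processing notes. Filters, strand setting and the role of each tool are not given in the sources used here. Identical counts of shared libraries were joined into 35272 genes. A gene missing from a table (11.7% of values) was read as 0, since tables list genes from 2 reads over their 10 libraries.

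Counts were fitted per comparison with edgeR 4.0.16 in R 4.3.3: TMM scaling, filterByExpr (minimum count 10, minimum total 15), quasi-likelihood F-test, Benjamini-Hochberg adjustment over all tested genes, call at an adjusted p under 0.05. Values are log2 fold changes with SE, and intervals are 95% intervals of that fit. Fold changes of the 5 µM effect between times come from a 4-group interaction over 20 libraries. The median of all genes lay within 0.012 of 0 in every comparison. Depth is the read total per library, and the intervals cover the spread between libraries. Alternatives were RLE size factors, DESeq2 1.42.0, limma-voom 3.58.1, no low-count filter, a filter of CPM of at least 1 in 5 libraries, the replicate number as a block, the Y-linked level as a covariate and each library left out. DESeq2 adjusted p-values that were missing were left out of counts. One alternative, leaving out the pair of 24 h libraries highest in erythroid transcripts, was chosen after seeing the data. The test was tried on simulated counts first.

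Replicate numbers were taken to pair the libraries where every same-numbered pair deviated together (correlation over 0.1 across genes). This held for 5 µM against 1 µM at 3 and 24 h and for 1 µM against control at 24 h by title (lowest correlation 0.201, 0.103 and 0.189). It held for both 1 µM comparisons at 48 h only with numbers from the library codes (lowest 0.214 against control and 0.118 for 5 µM against 1 µM).

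The members and lists were chosen with earlier results of these data known. Named genes are the 10 members and, per comparison, up to 4 called genes of smallest p from each pathway list (18 ligands, 12 receptor partners, 20 relay genes, 18 other feedback and target genes), plus the 3 genes of closest profile. Fgf10, Etv1 and the tissue markers were named outside that rule, after their values were seen. Promoter windows are RefSeq's (GRCm38.p6), matched by symbol.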

Additional observations from a re-analysis of the deposited data

Results flagged for a closer look

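Of 90 sets of 5 libraries (10 genes in 9 groups), 5 held a library far from the other 4, and chance alone gives about 1 in 20 such sets. Fgfr3 in control 48 h replicate 3 stood at 200.2 CPM, against 252.6 CPM in the nearest library. Spry1 in control 24 h replicate 4 stood at 43.46 CPM, with the nearest at 50.39 CPM. Spry2 was high at 73.43 CPM in 5 µM 24 h replicate 5 (nearest 62.28 CPM) and at 78.06 CPM in 1 µM 48 h replicate 2 (nearest 68.49 CPM). For Etv5 the lowest value of the 1 µM 3 h group was 46.70 CPM in replicate 5, with the nearest at 55.33 CPM, and this is the library whose treatment tag and title differ.

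The 5 µM effect differed between times in 8 tests in edgeR. Between 24 and 3 h the difference was 0.5188 for Fgfr3, -0.5911 for Spry1 and -0.4758 for Etv5 on the log2 scale. Between 48 and 3 h it was 0.3016 for Fgfr2, 0.4454 for Fgfr3, -0.3932 for Fgfr4, -0.5897 for Spry1 and -0.5925 for Etv5. Spry1 and Etv5 were fitted above control at 3 h, by 0.23 and 0.22 and without a call, and below it at 24 and 48 h.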

How the results depend on the processing

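No member's log2 fold change that was called turned its sign under any alternative. The number of members called moved as follows. For 5 µM against control at 24 h (2 called) it was 4 with DESeq2, 4 with the Y-linked covariate and 5 without the pair of libraries highest in erythroid transcripts. For 5 µM against 1 µM at 48 h (3 called) it was 6 with DESeq2, which called 1235 of 17289 genes where edgeR called 974 of 16349. For the difference of the 5 µM effect between 24 and 3 h (3 called) it was 6 with DESeq2 and 6 without the erythroid pair, and for that between 48 and 3 h (5 called) it was 3 with the Y-linked covariate. The cause was not tested in any of these. Of the fold changes of single members under the alternatives, 2759 kept direction and side of the threshold, 80 lost the call and 61 gained it. Outside left-out libraries and the block, calls were lost by Fgfr4 (RLE factors, limma-voom and the Y-linked covariate) and Fgfr2 (no filter and the Y-linked covariate) in the effect difference between 48 and 3 h, with adjusted p up to 0.0563 and 0.0683, by Spry2 for 5 µM against 1 µM at 24 h (RLE factors, 0.0582) and by Fgfr2 at 48 h (Y-linked covariate, 0.0559).

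Leaving out 1 library at a time gave 1 to 3 members for 5 µM against control at 24 h and 3 to 6 at 48 h, 2 to 6 for 5 µM against 1 µM at 24 h and 2 to 5 at 48 h. It gave 6 to 8 for control at 24 against 3 h, 1 in every such fit at 48 against 24 h and 6 to 7 at 48 against 3 h, 3 to 5 for the effect difference between 24 and 3 h, 2 to 6 for that between 48 and 3 h, and 0 elsewhere.

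With the replicate block the number of members was 5 for 5 µM against control at 24 h (adding Spry2, Etv4 and Etv5), 6 for 5 µM against 1 µM at 48 h with numbers from titles and 6 with those from library codes, and 5 for the effect difference between 24 and 3 h. These fits called 655, 1447, 1618 and 149 of all genes, in place of 258, 974, 974 and 59. For 5 µM against control not every same-numbered pair met the rule for pairing at 3, 24 or 48 h (lowest correlation 0.0517, 0.0253 and 0.0393). Same-numbered libraries still correlated more on average, at 0.239, 0.268 and 0.259, against -0.0568, -0.065 and -0.0646 for other pairs. At these times 3, 4 and 4 of 5 libraries were closest to their own number. The rule thus leaves undecided whether the numbers pair these libraries, and the fits without a block ignore any such pairing. The block moved no other count of members by over 1.5 times.

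Counts over all genes moved by more than 1.5 times as follows. For 5 µM against control at 3 h (30 called) they were 115 with DESeq2, 79 with no filter, 62 with the block and as few as 15 with a library left out. At 24 h (258 called) they were 517 with DESeq2, 655 with the block, 465 with the Y-linked covariate, 514 without the erythroid pair and 109 to 498 with a library left out. For 5 µM against 1 µM they were 40 with DESeq2, 10 with limma-voom, 25 with no filter and 50 with the block at 3 h (6 called, 1 to 9 with a library left out), 339 with DESeq2, 319 with the block, 334 with the Y-linked covariate and 95 to 553 with a library left out at 24 h (196 called), and 1618 with the block by library codes at 48 h (974 called). For 1 µM against control they were 2 with DESeq2, 2 with the block and 3 with no filter at 24 h (1 called), 4 with DESeq2 and 1 with no filter at 48 h (0 called), and up to 1 with a library left out at 3 h (0 called). For the effect difference between 24 and 3 h (59 called) they were 149 with DESeq2, 149 with the block, 32 with the Y-linked covariate, 133 without the erythroid pair and 30 to 109 with a library left out. For that between 48 and 24 h (12 called) they were 50 with DESeq2, 50 with the block, 7 with limma-voom, 27 with no filter, 4 without the erythroid pair and 2 to 17 with a library left out.

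Etv4 was the member with the fewest reads, 118 in the lowest library. At 48 h it had 171 to 343 reads in the 5 µM and control libraries, and its 95% interval of -0.32 to 0.41 holds the spread between libraries as well as counting error, which were not separated.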

Other observations

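Other genes of the FGF pathway also changed with time in culture in control buds, to a degree that differed between the lists. At 24 h against 3 h, 7 of 12 tested ligand genes rose and none fell, among them Fgf7, a mesenchymal ligand for epithelium (1.30 ± 0.12, SE), Fgf6 (1.49 ± 0.26), Fgf2 (0.62 ± 0.07) and Fgf9 (0.51 ± 0.09). Of 11 receptor partners 7 rose, led in p by the decoy receptor Fgfrl1 (0.71 ± 0.06), and 1 fell. Of 20 relay genes 7 rose and none fell. Among 17 other feedback and target genes 5 rose and 2 fell. The shares of both these lists lay near the 37.8% called over all genes. Etv1 (0.68 ± 0.07) and the RAS inhibitor Spred1 (0.41 ± 0.06) rose, while the phosphatases Dusp9 (-0.87 ± 0.10) and Dusp5 (-1.07 ± 0.18) fell.

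At 48 h against 24 h the changes were fewer. Of 12 tested ligand genes 3 rose and 1 fell, and of 11 receptor partners 1 rose and 1 fell. Of 20 relay genes 2 rose and 2 fell. Of 17 other feedback and target genes 2 rose and 2 fell. The FGF carrier protein Fgfbp1 (1.22 ± 0.24), Fgf6 (0.79 ± 0.19), Fgf7 (0.41 ± 0.11) and the immediate early gene Egr1 (0.98 ± 0.24) rose, and Fgf10 (-0.35 ± 0.11), the FGF inhibitor Il17rd (-0.35 ± 0.09) and Dusp9 (-0.55 ± 0.14) fell. Fold changes here are log2 values from edgeR with adjusted p under 0.05, beside 37.8% of all genes called at 24 against 3 h and 16.3% at 48 against 24 h.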
